A study of Mus musculus with 5 samples.

Results

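The transcripts of 10 growth factors that macrophages secrete were measured in bone marrow-derived macrophages of NICcA and wild type mice. The 10 genes, Igf1, Hgf, Vegfb, Vegfc, Pdgfa, Pdgfb, Pdgfc, Tgfb1, Hbegf and Areg, were chosen by name, with earlier results of these data known. All 10 are among the 20581 gene symbols of the deposited count table. Where a gene has several RefSeq transcript rows, the row with the highest mean count stands for it. The data comprise 2 NICcA libraries, numbered 2 and 3, and 3 wild type libraries, numbered 1 to 3. All 5 came from mice of C57BL/6 background aged 7 to 8 weeks, whose marrow cells had grown for 7 days in 25 ng/ml M-CSF, the growth factor that drives macrophage formation. NICcA is left unexplained in the labels. As background, the name has been used for mice that conditionally express a Notch intracellular domain, the receptor fragment that works in the nucleus with the DNA-binding factor Rbpj; which promoter would drive it is not stated in the labels. Whether the libraries within each genotype stem from different mice or dishes is not stated either, and p-values therefore reflect only how these libraries spread, which may be technical.

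Growth factors are secreted proteins that bind receptor kinases on nearby cells. Igf1 and Hgf drive survival and repair of epithelium and muscle, the platelet-derived factors (Pdgfa, Pdgfb, Pdgfc) act on fibroblasts and smooth muscle, and Vegfb and Vegfc act on blood and lymphatic endothelium. Hbegf and Areg are ligands of the epidermal growth factor receptor that are shed from the cell surface, and Tgfb1 is secreted in a latent form that must be released before it signals. Macrophages are known as a source of many of these factors in wound repair.

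Total counts were 64870248 and 68110891 reads in NICcA replicates 2 and 3, against 57442309, 76562905 and 69140350 reads in wild type replicates 1, 2 and 3. The macrophage markers Lyz2, Cd68, Csf1r and Emr1 were abundant in every library; Csf1r, the M-CSF receptor, was at 189 RPKM in each NICcA library and at 176, 177 and 230 RPKM in wild type (RPKM is the read count scaled to transcript length and library size). Hes1, which Notch signalling switches on, had 185 and 125 reads in NICcA and 1, 5 and 6 reads in wild type, and Notch1 was at 7.55 and 7.89 RPKM in NICcA and at 6.70, 5.57 and 5.52 RPKM in wild type. On the first principal component, 55.7% of the variance of log2 expression, NICcA replicate 2 (53.7) and wild type replicate 3 (-57.9) lay at opposite ends, with NICcA replicate 3 at 24.1 and wild type replicates 1 and 2 at -1.06 and -18.9. Values that moved by over 1.5 times without either end library are given with and without it.

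The upstream sequences of Igf1 and Hgf are shown because these were the 2 members that one of the count tests called. Both are the 250 bases before a RefSeq start site of GRCm38.p6, matched by symbol: chr10:87860861-87861110 on the plus strand for Igf1 and chr5:16553245-16553494 on the plus strand for Hgf, 1 of the 2 start sites of Hgf in that set. Capitals mark matches, on either strand, to TGGGAA, the core bound by Rbpj, and to TGANTCA. The latter is a search pattern wider than the AP-1 motif, since N takes any base.
Igf1: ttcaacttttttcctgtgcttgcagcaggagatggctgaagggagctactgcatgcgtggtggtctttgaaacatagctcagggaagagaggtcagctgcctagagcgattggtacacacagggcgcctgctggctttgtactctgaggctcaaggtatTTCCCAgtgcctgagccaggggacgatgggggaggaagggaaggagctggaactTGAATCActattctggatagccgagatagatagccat
Hgf: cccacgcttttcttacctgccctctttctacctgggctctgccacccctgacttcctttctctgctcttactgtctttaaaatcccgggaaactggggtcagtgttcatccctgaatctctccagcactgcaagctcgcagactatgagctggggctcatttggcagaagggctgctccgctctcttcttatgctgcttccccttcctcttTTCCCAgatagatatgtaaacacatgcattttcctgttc

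The TGGGAA match starts 91 bases before the start site in Igf1 and 39 bases before it in Hgf, both on the minus strand. In Igf1 the TGANTCA match, which has A in place of N, starts 37 bases before the start site. Windows were at hand for 8 of the members. Of their 10 windows, 4 held TGGGAA (Igf1, Hgf, Pdgfa and Areg), where 21.6% of all 32851 windows of this length did, and 1 held TGANTCA, where 6.75% did. The other Hgf window, not shown, held no match to either pattern, and neither did the other Pdgfa window. The matches are a description of these letters and show no binding.

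The members spanned a wide range of levels. Igf1 averaged 20.4 RPKM in NICcA and 48.8 RPKM in wild type, and over all 5 libraries 94.7% of the genes in the table lay at or below its mean. Tgfb1 averaged 19.5 RPKM in NICcA and 15.7 RPKM in wild type. Then came Pdgfa (10.7 RPKM in NICcA, 12.6 RPKM in wild type) and Hgf (8.19 RPKM in NICcA, 13.6 RPKM in wild type). Pdgfc, Pdgfb and Vegfb followed, with means over the 5 libraries of 7.90, 3.15 and 1.92 RPKM.

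Hbegf, Vegfc and Areg were the lowest members, with means over the 5 libraries of 0.908, 0.124 and 0.0263 RPKM. In this order of 10 genes the ranges of neighbours over the 5 libraries overlapped in every pair except Hbegf and Vegfc. In NICcA replicate 2 Tgfb1 (20.2 RPKM) exceeded Igf1 (16.7 RPKM), whereas Igf1 led in the other 4 libraries.

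**Figure D1:**
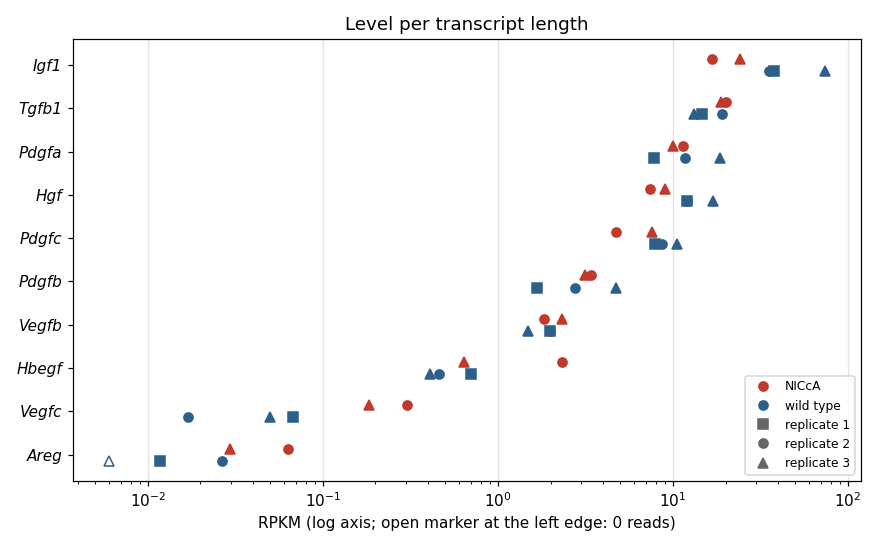
RPKM of each member (log axis) in the 5 libraries, NICcA in red above wild type in blue, with marker shape giving the replicate number. Igf1 is the only member to reach 73.7 RPKM, in wild type replicate 3, and Areg has 0 reads in that library.

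The first question is which of these factors differ between NICcA and wild type macrophages. In both NICcA libraries Igf1, Hgf and Pdgfc lay under the whole wild type range, and Vegfc lay above it. No member passed edgeR's quasi-likelihood test with Benjamini-Hochberg adjustment over all rows: 0 of the 9 tested members, where 0.03% of the 13339 tested genes passed. At an unadjusted p below 0.05, 3 members were lower, where 6.81% of all genes were, and 2 were higher, where 7.68% were (14.5% in either direction). DESeq2, the other count test, called 2 members, Igf1 and Hgf, both lower, where it called 1.9% of all genes lower and 2.05% higher (3.95% in all). Hes1, outside the members, had a log2 fold change of 5.18 (SE 0.54). It did not pass edgeR either (adjusted p = 0.134), and DESeq2 called it (adjusted p = 1.06e-11). The groups did not overlap for 4 of the 9 tested members, 3 lower and 1 higher, where 18.5% of all genes were lower and 18.4% higher without overlap (36.8% in all). The median log2 fold change of the 9 was -0.03, beside 0.0028 for all genes. Areg did not pass the filter on low counts, and Vegfc passed it through its NICcA counts.

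Igf1, the insulin-like growth factor, was the most abundant member and the one with the lowest log2 fold change. It was at 139.5 and 202 CPM in NICcA replicates 2 and 3, and the 3 wild type libraries, in order of number, held 330.0, 323 and 675 CPM (CPM is the read count scaled to the TMM-adjusted library size). Both NICcA libraries lay under all wild type libraries, and wild type replicate 3 stood far above its group. The means were 171 ± 43.9 CPM in NICcA and 443 ± 201 CPM in wild type (SD, n = 2 and n = 3 libraries, here and below).

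The log2 fold change of Igf1 was -1.38 (SE 0.39, edgeR adjusted p = 0.288). DESeq2 gave -1.38 (SE 0.37, adjusted p = 0.0104), and over all alternatives the adjusted p ran from 0.0104 to 0.901. Without wild type replicate 3 the log2 fold change was -0.94 (SE 0.20, edgeR adjusted p = 0.286), and without NICcA replicate 2 it was -1.14 (SE 0.50, edgeR adjusted p = 0.901). In bulk libraries, fewer cells that make a transcript and less of it per cell cannot be told apart.

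Igf1 has 5 transcript rows, which share reads. Their log2 fold changes lay between -1.41 and -1.09, and each had an edgeR adjusted p of 0.288. The row at -1.09, NM_184052, is the short one, with 0.153 of the length of the row used here, NM_010512. It held fewer reads than NM_010512, by 69.0% to 78.7% of the NM_010512 count over the 5 libraries. Its RPKM was 33.9 and 41.1 in NICcA and 54.6, 62.8 and 103 in wild type, so the level per length of Igf1 depends on the row while its direction was the same in all 5. The reads that NM_010512 held beyond NM_001111276 were 15.8% and 11.4% of its count in NICcA, and 11.6%, 12.5% and 9.91% in wild type. The groups overlapped on that share.

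The summed level of the 8 macrophage markers was 8309 and 9051 RPKM in NICcA and 9509, 11196 and 13743 RPKM in wild type, most of it from Lyz2, the lysozyme gene. Without Lyz2 the sums overlapped, at 819 and 635 RPKM in NICcA and at 673, 683 and 859 RPKM in wild type. Of the 8, Cd68, Lyz2 and Mertk were lower in NICcA without overlap, where 18.5% of all tested genes were. Fcgr1 was higher without overlap, where 18.4% of all tested genes were, and 4 of the 8 overlapped. The part of the macrophage markers in the Igf1 difference was not tested. The 10 fibroblast markers, of a cell type known to make Igf1 and Hgf, summed to 1.36 and 1.22 RPKM in NICcA and to 4.76, 1.76 and 4.12 RPKM in wild type. Without Postn, a matrix protein gene, the sums overlapped, at 0.995 and 0.535 RPKM in NICcA and 3.58, 0.622 and 0.426 RPKM in wild type. In wild type replicate 1 Col1a1, Col1a2 and Col3a1, named after their values were seen, had 116, 311 and 419 reads. In any other library they had at most 15, 9 and 2 reads. None of the 10 was at 1 RPKM or more in every library, and none was at 0 in all. Their part in the differences of Igf1, Hgf and Pdgfc was not tested.

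Hgf encodes hepatocyte growth factor, the ligand of the receptor kinase Met. It was at 23.8 and 29.1 CPM in NICcA, and at 40.9, 42.4 and 60.0 CPM in wild type. The groups did not overlap. The means were 26.4 ± 3.71 CPM in NICcA and 47.8 ± 10.6 CPM in wild type, a log2 fold change of -0.85 (SE 0.21, edgeR adjusted p = 0.279). DESeq2 gave -0.85 (SE 0.24, adjusted p = 0.0141; over all alternatives 0.0141 to 0.901). Without wild type replicate 3 the value was -0.65 (SE 0.15, edgeR adjusted p = 0.304), and without NICcA replicate 2 it was -0.72 (SE 0.26, edgeR adjusted p = 0.901).

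Pdgfc, a platelet-derived growth factor that signals mainly through Pdgfra, was at 19.5 and 31.1 CPM in NICcA, and at 34.3, 39.3 and 47.9 CPM in wild type. NICcA replicate 3 lay just under wild type replicate 1, and NICcA replicate 2 stood well below both. The means were 25.3 ± 8.25 CPM in NICcA and 40.5 ± 6.88 CPM in wild type, a log2 fold change of -0.68 (SE 0.24, edgeR adjusted p = 0.326). Without NICcA replicate 2 it was -0.38 (SE 0.22, edgeR adjusted p = 0.901), and without NICcA replicate 3 it was -1.06 (SE 0.23, edgeR adjusted p = 0.225). DESeq2 did not call the gene (adjusted p = 0.133; over all alternatives 0.109 to 0.901).

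**Figure D2:**
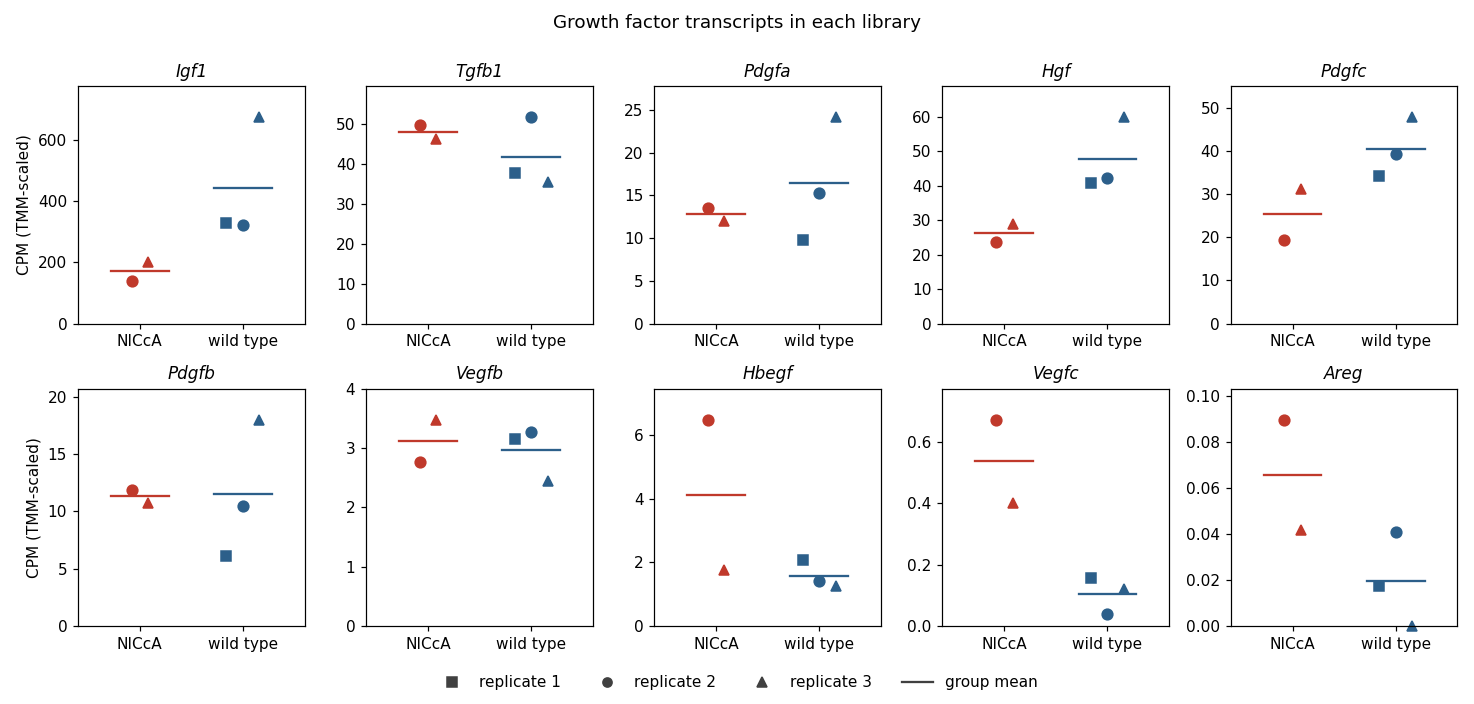
TMM-scaled CPM of each member (one panel each, own axis from 0) in the NICcA libraries at the left and the wild type libraries at the right, with lines at the group means. Both NICcA points of Igf1, Hgf and Pdgfc lie under the wild type range, those of Vegfc lie above it, and Hbegf stands out in NICcA replicate 2 alone at 6.48 CPM.

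Vegfc, the main growth factor of lymphatic endothelium, had 45 and 29 reads in NICcA and 9, 3 and 8 reads in wild type. These are 0.673 and 0.402 CPM in NICcA, against 0.156, 0.0409 and 0.121 CPM in wild type. Both NICcA libraries lay above all wild type libraries, at low counts. The exact 95% Poisson interval of the CPM was 0.269 to 0.577 in NICcA replicate 3 and 0.0714 to 0.297 in wild type replicate 1, the nearest pair.

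The log2 fold change of Vegfc was 2.35 (SE 0.61, edgeR adjusted p = 0.280). DESeq2 did not call it (adjusted p = 0.0886; over all alternatives 0.0886 to 0.901). The summed reads, 74 in NICcA and 20 in wild type, gave a ratio of 5.24 after scaling to depth, with an exact 95% interval of 3.16 to 9.07 that covers counting error only. Without NICcA replicate 2 the log2 fold change was 1.92 (SE 0.94, edgeR adjusted p = 0.901). On log2(RPKM + 1) without a filter it was 0.25, since that scale understates changes of low genes.

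Hbegf, a ligand of the epidermal growth factor receptor that activated macrophages are known to make, was high in 1 library. It was at 6.48 and 1.77 CPM in NICcA, and at 2.06, 1.42 and 1.26 CPM in wild type. NICcA replicate 3 lay within the wild type range. The log2 fold change was 1.38 (SE 0.54, edgeR adjusted p = 0.339). Without NICcA replicate 2 it was 0.17 (SE 0.40, edgeR adjusted p = 0.966), and without NICcA replicate 3 it was 2.04 (SE 0.33, edgeR adjusted p = 0.149).

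Areg, which encodes amphiregulin of the same ligand family, was close to the limit of detection. It had 6 and 3 reads in NICcA and 1, 3 and 0 reads in wild type. A count of 0 in wild type replicate 3 allows up to 0.0455 CPM at a floor of 3 reads and up to 0.0560 CPM by the exact 95% Poisson interval, and NICcA replicate 3 was at 0.0416 CPM. A difference was not detectable at this depth: the ratio of summed reads, 9 in NICcA to 4 in wild type, had an exact 95% interval of 0.889 to 14.2 after scaling to depth.

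The other 4 members overlapped between the groups. Tgfb1, transforming growth factor beta 1, was at 49.7 and 46.1 CPM in NICcA, and at 37.7, 51.7 and 35.5 CPM in wild type. The NICcA libraries lay inside the wild type range, with a log2 fold change of 0.20 (SE 0.18, edgeR adjusted p = 0.603). Without wild type replicate 2 it was 0.39 (SE 0.11, edgeR adjusted p = 0.398), and without wild type replicate 3 it was 0.10 (SE 0.18, edgeR adjusted p = 0.880). Vegfb, a factor of the vascular endothelial family that binds Flt1, was at 2.77 and 3.48 CPM in NICcA, and at 3.16, 3.28 and 2.44 CPM in wild type. Its log2 fold change was 0.08 (SE 0.22, edgeR adjusted p = 0.881), and the second row of the gene gave -0.0056. Without NICcA replicate 2 it was 0.23, and without wild type replicate 3 it was -0.042.

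Pdgfa and Pdgfb encode the chains of the classical platelet-derived growth factor dimers. Pdgfa was at 13.6 and 12.0 CPM in NICcA, and at 9.77, 15.3 and 24.2 CPM in wild type. Pdgfb was at 11.8 and 10.8 CPM in NICcA, and at 6.11, 10.4 and 18.0 CPM in wild type. Both genes were close in the NICcA libraries and spread widely in wild type, where replicate 3 was highest and replicate 1 lowest for each. In wild type the highest library was 2.47 times the lowest for Pdgfa and 2.95 times for Pdgfb.

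The log2 fold change was -0.36 (SE 0.36, edgeR adjusted p = 0.645) for Pdgfa and -0.03 (SE 0.42, edgeR adjusted p = 0.980) for Pdgfb. Without wild type replicate 3 the values were 0.03 (SE 0.24, edgeR adjusted p = 0.978) for Pdgfa and 0.45 (SE 0.27, edgeR adjusted p = 0.599) for Pdgfb. The sign of Pdgfb also turned with no scaling factors, where it was 0.089, and the value was -0.097 without NICcA replicate 2, so no direction is given for it.

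**Figure D3:**
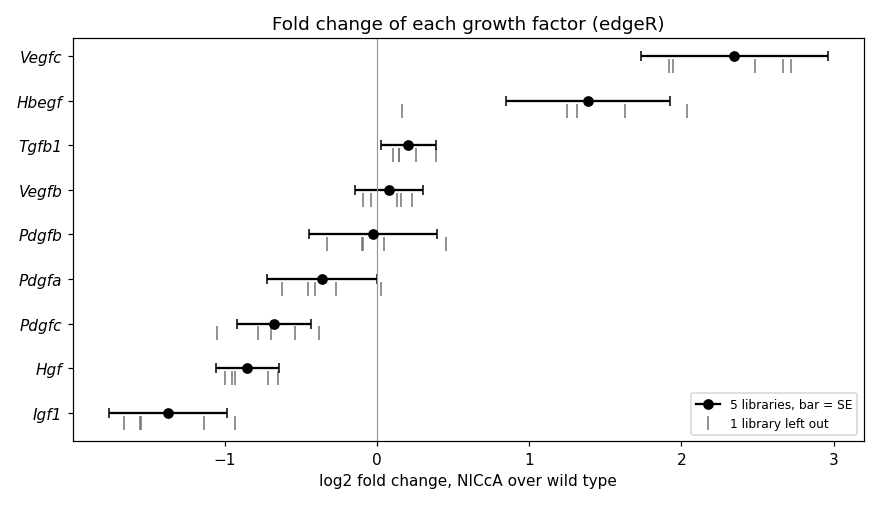
Log2 fold change of NICcA over wild type for the 9 tested members (x axis), with the SE as a bar; ticks under each point are the values with 1 library left out. The tick of Hbegf at 0.17 is the value without NICcA replicate 2, and Pdgfa and Pdgfb have ticks on both sides of 0.

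The receptors of these factors showed no call. All 20 listed receptors and coreceptors were in the table and 19 were tested. Of these 19, edgeR and DESeq2 each called 0, where they called 0.03% and 3.95% of all genes. At an unadjusted p below 0.05, 3 of the 19 were lower and 0 higher, where 6.81% of all genes were lower and 7.68% higher. The groups did not overlap for 4 of the 19, where they did not for 36.8% of all genes. Their median log2 fold change was -0.0068. Igf2r, which takes up Igf2 and lysosomal enzymes, was at 228 and 192 CPM in NICcA and at 251, 283 and 362 CPM in wild type (log2 fold change -0.51, SE 0.19, edgeR adjusted p = 0.333). Nrp1, a coreceptor for vascular endothelial factors, was at 92.7 and 92.0 CPM in NICcA and at 116, 119 and 190.0 CPM in wild type (log2 fold change -0.62, SE 0.24, edgeR adjusted p = 0.339). Wild type replicate 3 was the highest library for both, and without it the value of Nrp1 was -0.35 (SE 0.11, edgeR adjusted p = 0.396).

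Erbb2, a receptor kinase partnering with the epidermal growth factor receptor, was below 1 CPM throughout, at 0.284 and 0.180 CPM in NICcA and at 0.555, 0.519 and 0.941 CPM in wild type (log2 fold change -1.53, SE 0.48, edgeR adjusted p = 0.300). Egfr, the receptor of Hbegf and Areg, was at 6.54 and 7.89 CPM in NICcA and at 4.93, 5.60 and 6.42 CPM in wild type (log2 fold change 0.35, SE 0.18, edgeR adjusted p = 0.398). Levels of 4 further receptors were looked up after their values were seen. Tgfbr1 and Tgfbr2, the receptor pair of Tgfb1, were at 57.1 and 68.7 RPKM and at 32.6 and 28.9 RPKM in NICcA, and at 61.2 to 72.7 RPKM and 27.1 to 29.3 RPKM in wild type. Met, the receptor of Hgf, was at 17.1 and 5.39 RPKM in NICcA and at 7.62, 6.32 and 8.33 RPKM in wild type, with NICcA replicate 2 apart. Igf1r, the receptor of Igf1, did not exceed 0.952 RPKM in any library.

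Among the 32 binding proteins, proteases and inhibitors that hold or release these factors, 25 were tested. Of these 25 edgeR called 0, where it called 0.03% of all genes. At an unadjusted p below 0.05, 5 of the 25 were higher, against 7.68% of all genes, and 1 was lower, against 6.81%. DESeq2 called 3 of the 25, all higher, against 2.05% of all genes. The median log2 fold change was -0.0019. The DESeq2 calls were genes of the step that activates Hgf protein: Spint1 and Spint2, inhibitors of Hgf-activating proteases, and St14, the membrane protease matriptase, which can cleave the Hgf precursor. These 3 are among the genes the naming rule took for their small p, so that the shared step was noticed after their values were seen. The inhibitors and the protease act on that step in opposite ways. Hgfac, the gene of Hgf activator, was looked up after its values were seen, and neither test called it. Its log2 fold change was 0.82 (SE 0.39, edgeR adjusted p = 0.375, DESeq2 adjusted p = 0.260).

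Spint1 was at 428 and 412 CPM in NICcA and at 271, 274 and 187 CPM in wild type (log2 fold change 0.78, SE 0.19, edgeR adjusted p = 0.278; DESeq2 adjusted p = 0.00970, over all alternatives 0.00970 to 0.901). Spint2 was at 10.2 and 9.38 CPM in NICcA and at 4.70, 2.92 and 1.09 CPM in wild type (log2 fold change 1.75, SE 0.53, edgeR adjusted p = 0.299; DESeq2 adjusted p = 0.0353, over all alternatives 0.0353 to 0.901). Neither gene overlapped between the groups, and wild type replicate 3 was lowest for both. Of the 25 tested genes of this list, 6 were higher and 3 lower without overlap, against 18.4% and 18.5% of all genes. St14 was at 10.8 and 7.97 CPM in NICcA and at 6.25, 5.46 and 4.28 CPM in wild type (log2 fold change 0.82, SE 0.22, edgeR adjusted p = 0.288; DESeq2 adjusted p = 0.0466, over all alternatives 0.0466 to 0.901). Plau, the urokinase protease, was at 200.3 and 116 CPM in NICcA and at 94.8, 95.3 and 98.2 CPM in wild type (log2 fold change 0.72, SE 0.22, edgeR adjusted p = 0.299). Without NICcA replicate 2 its value was 0.27 (SE 0.13, edgeR adjusted p = 0.901).

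**Figure D4:**
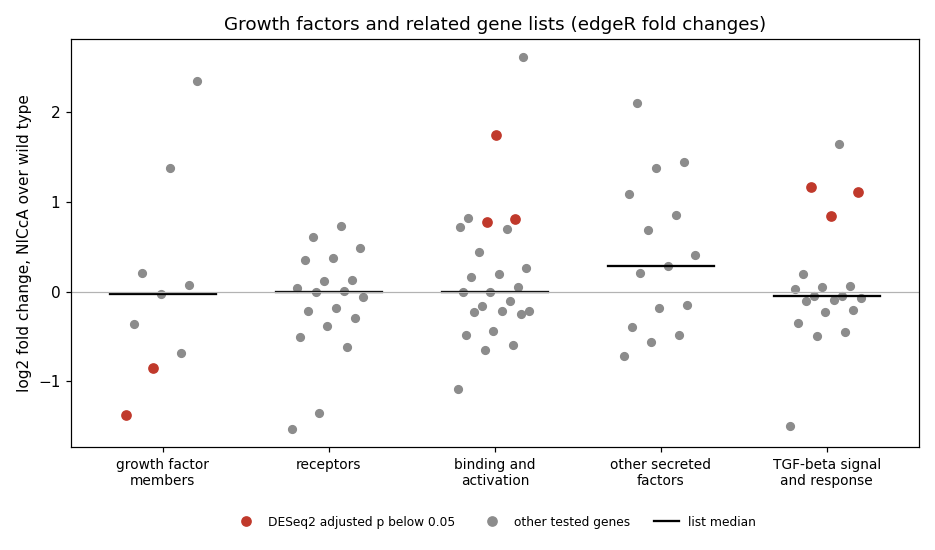
Log2 fold change of NICcA over wild type (y axis) for the tested genes of the growth factor members and 4 related lists, with the list median as a line. Genes that DESeq2 called are red: 2 members below 0, and 3 genes above 0 in each of the binding and activation list and the TGF-beta list.

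Of 25 further secreted growth factors and cytokines outside the 10 members, 15 were tested. Of these 15, edgeR and DESeq2 each called 0, where they called 0.03% and 3.95% of all genes. At an unadjusted p below 0.05, 4 of the 15 were higher and 0 lower, against 7.68% and 6.81% of all genes, and the list's median log2 fold change was 0.28. Pgf, placental growth factor, which like Vegfb binds Flt1, was at 35.4 and 26.8 CPM in NICcA and at 13.0, 6.96 and 1.68 CPM in wild type (log2 fold change 2.11, SE 0.71, edgeR adjusted p = 0.320). The groups did not overlap, and the wild type libraries themselves differed widely. Of the 15 tested genes of this list, 5 were higher and 1 lower without overlap, against 18.4% and 18.5% of all genes.

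Tgfb3, a relative of Tgfb1, was at 0.823 and 0.652 CPM in NICcA and at 0.347, 0.177 and 0.288 CPM in wild type (log2 fold change 1.45, SE 0.42, edgeR adjusted p = 0.288). Nrg1, a ligand of Erbb3 and Erbb4, was at 2.75 and 1.47 CPM in NICcA and at 1.30, 0.914 and 0.759 CPM in wild type (log2 fold change 1.09, SE 0.38, edgeR adjusted p = 0.323). Osm, the cytokine oncostatin M, was at 21.2 and 10.8 CPM in NICcA and at 10.8, 9.50 and 6.15 CPM in wild type (log2 fold change 0.86, SE 0.35, edgeR adjusted p = 0.345). For Nrg1 and Osm, NICcA replicate 3 lay next to the highest wild type library and NICcA replicate 2 stood apart. Without NICcA replicate 2 the log2 fold change was 0.57 (SE 0.43, edgeR adjusted p = 0.901) for Nrg1 and 0.29 (SE 0.34, edgeR adjusted p = 0.919) for Osm.

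Signalling and response genes of the TGF-beta family made up the last list. Of 20 genes, 19 were tested. Of these 19 edgeR called 0, where it called 0.03% of all genes. DESeq2 called 3, all higher, against 2.05% of all genes. At an unadjusted p below 0.05, 3 of the 19 were higher and 1 lower, against 7.68% and 6.81% of all genes, and the median log2 fold change was -0.05. DESeq2's calls were Smad7, Pmepa1 and Smad6. Other inhibitors in the list, looked up after their values were seen, did not pass either test and had negative log2 fold changes: Skil -0.35, Tgif1 -0.49, Smurf2 -0.23, Smurf1 -0.09, Ski -0.05 and Bambi -0.05. Smad7, an inhibitor of the TGF-beta receptor, was at 10.2 and 7.80 CPM in NICcA and at 3.35, 5.32 and 3.32 CPM in wild type (log2 fold change 1.17, SE 0.26, edgeR adjusted p = 0.275; DESeq2 adjusted p = 0.00887, over all alternatives 0.00887 to 0.901). Pmepa1, which sequesters receptor-activated Smad proteins, was at 3.29 and 2.59 CPM in NICcA and at 1.32, 1.53 and 1.24 CPM in wild type (log2 fold change 1.11, SE 0.23, edgeR adjusted p = 0.275; DESeq2 adjusted p = 0.00820, over all alternatives 0.00820 to 0.901).

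Smad6, an inhibitor mainly of the related BMP branch, was at 3.08 and 4.01 CPM in NICcA and at 1.80, 2.20 and 1.91 CPM in wild type (log2 fold change 0.84, SE 0.22, edgeR adjusted p = 0.280; DESeq2 adjusted p = 0.0437, over all alternatives 0.0437 to 0.901). Klf10, an early response gene of TGF-beta, went the other way, at 47.9 and 45.1 CPM in NICcA and at 63.1, 57.4 and 70.3 CPM in wild type (log2 fold change -0.45, SE 0.12, edgeR adjusted p = 0.283). For all 4 genes, which were named for their small p, the groups did not overlap. Of the 19 tested genes of this list, 4 were higher and 4 lower without overlap, against 18.4% and 18.5% of all genes. The Tgfb1 transcript itself was at overlapping levels in the same libraries.

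**Figure D5:**
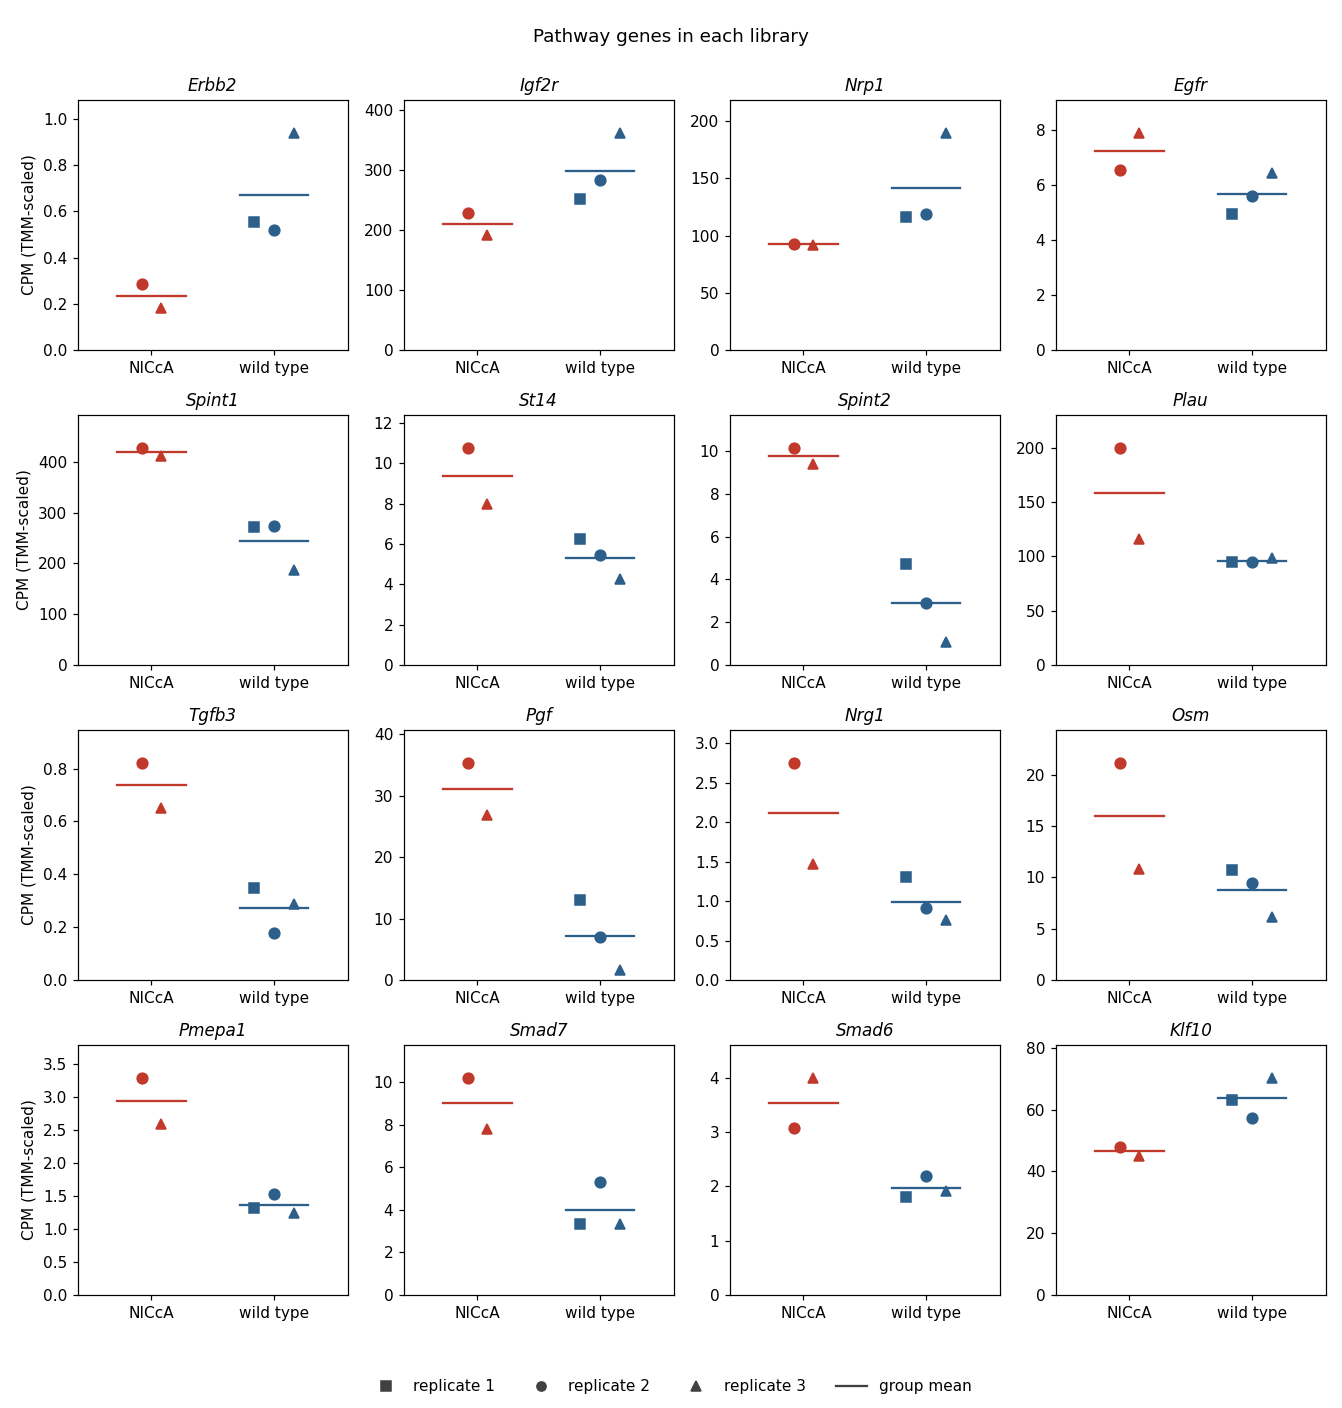
TMM-scaled CPM of the 4 genes named from each related list (one row per list, each panel with its own axis from 0) in the NICcA libraries at the left and the wild type libraries at the right, with lines at the group means. Both NICcA points of Spint1, Smad7 and Pmepa1 lie above the wild type range, and those of Igf2r and Nrp1 lie under it.

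Several markers of other cell types were higher in NICcA without overlap. Over the 13339 tested genes, 18.4% were higher and 18.5% lower without overlap. Markers that do not lead their list were named after their values were seen. The 10 markers of mast cells, basophils and eosinophils summed to 20.2 and 18.0 RPKM in NICcA and to 9.75, 5.29 and 2.57 RPKM in wild type. Cpa3, a mast cell carboxypeptidase, led them at 13.3 and 9.30 RPKM in NICcA and at 5.74, 2.89 and 1.23 RPKM in wild type, and 8 of the 10 stayed under 1 RPKM in every library. Of the 10, 6 were higher in NICcA without overlap and 0 lower. Of the 8 dendritic cell markers, 6 were higher without overlap (Flt3, Zbtb46, Cd209a, Siglech, Xcr1 and Btla) and 0 lower. Flt3, Siglech and Xcr1 stayed under 1 RPKM in every library. Without Itgax, which macrophages also express, that list summed to 87.5 and 45.8 RPKM in NICcA and to 23.8, 36.3 and 11.5 RPKM in wild type. Ccr7 gave most of that sum, at 71.7 and 30.0 RPKM in NICcA and at 13.7, 30.5 and 9.32 RPKM in wild type. The groups overlapped on Ccr7. Of the 10 neutrophil markers in the table, 4 were higher without overlap (Prtn3, Ctsg, Ltf and Ngp) and 0 lower. Prtn3 and Ctsg stayed under 1 RPKM in every library. Without Mmp8 that list summed to 140.1 and 169.8 RPKM in NICcA and to 106, 68.7 and 132 RPKM in wild type. Vegfc, Pgf and other genes named above were also higher in NICcA. The part of these markers in those differences was not tested. With their leading genes kept, summed levels overlapped between groups for the neutrophil, dendritic cell, endothelial, platelet and lymphocyte lists. The sums in NICcA and wild type were 308 to 383 and 261 to 420 RPKM for neutrophil markers, led by Mmp8, and 163 to 258 and 157 to 192 RPKM for dendritic cell markers, led by Itgax. They were 19.0 to 19.8 and 17.7 to 23.2 RPKM for endothelial markers, led by Vwf, 4.81 to 5.51 and 3.15 to 6.45 RPKM for platelet markers, led by Treml1, and 2.02 to 2.58 and 1.58 to 2.81 RPKM for lymphocyte markers, led by Cd2. Without overlap, 1 of 7 platelet and 3 of 12 lymphocyte markers were higher in NICcA, against 18.4% of all tested genes. In the endothelial list 2 of 8 were lower without overlap, against 18.5%. No marker of the lists in this paragraph passed edgeR, where 0.03% of all tested genes did. DESeq2 called Cpa3 (adjusted p = 0.0488), Ngp (0.0353) and the platelet marker Itga2b (0.000188), all higher, and no other marker here. Over all tested genes it called 3.95%.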

How the data were processed

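RNA of 5 libraries was sequenced. One deposited table gives raw read count and RPKM values made by the authors, per the file headers, for 27457 RefSeq transcript rows; a further one repeats the RPKM rows of the members. Bowtie 0.12.2 and mm8 appear in the submitters' processing notes, without a role; which tool counted reads, and whether by strand, is not given in the sources used here. Isoform rows share reads, and symbols turned into dates were left as deposited.

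Read counts of 18267 rows (13339 genes) entered edgeR 4.0.16 (R 4.3.3; TMM, filterByExpr, glmQLFit, glmQLFTest, genotype as the only term, Benjamini-Hochberg over all rows, adjusted p below 0.05). Standard errors come from the log2 fold change and the quasi-likelihood F (its size over the root of F). The common biological coefficient of variation was 22.5%. The fit was tested on simulated data. Alternatives were other scalings, filters, DESeq2 1.42.0, limma-voom (limma 3.58.1), edgeR's legacy = FALSE, limma on log2(RPKM + 1) or log2(RPKM + 0.1), 1 row per gene, the replicate number as a block, and each library left out. Rows on RPKM had at least 1 RPKM in at least 2 libraries.

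Members and lists were chosen with earlier results of these data known. The text names all 10 members and, of each other list, up to 4 called genes or, with none called, the 4 of lowest p, and the most abundant gene of each marker list. Intervals and floors cover counting error only. Upstream sequences are from RefSeq, GRCm38.p6; other coordinates are not given, since the reference is of another build. Figures used Python 3.11.15 and matplotlib 3.10.9.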

Additional observations from a re-analysis of the deposited data

How the results depend on the processing

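DESeq2 called 2 growth factor members, 3 binding and activation genes, 3 TGF-beta genes and 527 genes in all, where edgeR called 0, 0, 0 and 4; the other alternatives called none of the members and of the 4 related lists. The count over all genes was 11 without a low-count filter, 2 with limma-voom, 8 with legacy = FALSE, 2 with limma on log2(RPKM + 1) and 2 on log2(RPKM + 0.1), and 0 to 44 without each library in turn. With the replicate number as a block it was 0. The labels do not say that a number marks a shared batch. Deviations of same-numbered libraries from their group means correlated at 0.206 and 0.168 over 13339 genes, in only 2 pairs. The deviations of 2 NICcA libraries from their mean mirror each other, so that swapping the numbers gave -0.206 and -0.168. The 2 values are therefore not independent, and whether a number marks a batch was not settled. Without each library in turn the log2 fold change ran from -0.095 to 0.23 for Vegfb, -0.63 to 0.025 for Pdgfa and -0.33 to 0.45 for Pdgfb. Pdgfb was also positive without scaling factors (0.089), with limma-voom (0.088), and with limma on log2(RPKM + 1) (0.14, also 0.14 without a filter) and log2(RPKM + 0.1) (0.21). For these changes the cause was not tested. A fit with 1 NICcA library assumes that it varies like the wild type libraries. The other 6 tested members kept their sign in every alternative that gave a value; Hbegf and Vegfc gave none under some filters, and Areg was not tested. Omitting scaling factors gave a median of all genes of 0.11, against 0.0028 with TMM. Depth limits Vegfc and Areg.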
